A study of Homo sapiens with 12 samples.

Results

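The respiratory chain and ATP synthase subunits encoded in the nucleus were followed by RNA sequencing in AC16 cells given interferon alpha-2a in 1 pulse or 2. Members were all protein-coding genes whose symbol began as a subunit symbol of complex I (NDUFA, NDUFB, NDUFC, NDUFS or NDUFV with a number), complex II (SDHA to SDHD), complex III (UQCR and CYC1), complex IV (COX4 to COX8 with A, B or C) or ATP synthase (ATP5F1, ATP5M or ATP5P), with a mean of at least 10 counts. Of 60649 genes in the count table, 264 had such a symbol and 79 were kept. These were 38 genes of complex I, 4 of complex II, 10 of complex III, 10 of complex IV and 17 of ATP synthase. Pseudogenes (171), noncoding loci (6) and readthrough loci (2) were left out, as were 6 genes below the count limit. Among these 6 were COX6A2 and COX7A1, the subunit isoforms of heart and skeletal muscle, which had 0 counts in all 12 libraries. All 79 members passed the filter on low counts used for testing. NDUFA4 was kept with complex I by its symbol, although much of the literature now places the protein in complex IV.

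Oxidative phosphorylation runs in the inner mitochondrial membrane. Complexes I and II take electrons from NADH and succinate, complex III passes them from ubiquinol to cytochrome c, and complex IV passes them to oxygen. Complexes I, III and IV pump protons, and ATP synthase uses the gradient to make ATP, which heart muscle consumes at a high rate. Most subunits are made from nuclear genes and imported, and a small core is encoded in mitochondrial DNA, so both genomes must supply each of these complexes except complex II. Type I interferon, an antiviral cytokine, induces a broad set of antiviral genes and is raised in systemic lupus, the setting named in the design text.

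AC16 is an immortalised wild-type human line with features of ventricular cardiomyocytes, and each group held 3 libraries stated to come from independent biological replicates. Repeat cells received interferon alpha-2a at 1000 U/mL for 24 h, 4 days without it and another 24 h of it. Recovery cells received the 24 h pulse and then 5 days without interferon. Acute cells had only the first 24 h of interferon before harvest, and vehicle cells received phosphate-buffered saline for 24 h. The vehicle label gives no longer interval, so repeat and recovery cells differ from vehicle and from acute cells also in time in culture, and the part of that time in those comparisons cannot be told apart. Repeat against recovery is the pair at a similar time, although the repeat labels give day 7 and the stated times add to 6 days. The labels name 2 culture media. All libraries carry the same batch label.

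Depth was 39941319 to 62281900 estimated counts per library. The members together took 0.574 to 0.602% of all counts in repeat, 0.593 to 0.603% in recovery, 0.568 to 0.575% in acute and 0.585 to 0.595% in vehicle libraries. The response to interferon was visible in each library taken right after a pulse: MX1, an antiviral GTPase induced by interferon, had 792, 799 and 814 CPM in repeat, 7.82, 7.19 and 8.02 in recovery, 783, 767 and 767 in acute and 4.68, 3.05 and 2.92 in vehicle libraries (CPM, counts relative to library size, scaled by the TMM method). Cardiomyocyte markers were near 0. Of 12, MYL7 had 0 counts in all libraries, TNNT2 at most 14 counts and MYH7 at most 1, and their summed level (CPM of the unscaled counts) was 3.69 to 4.24 CPM in repeat, 2.74 to 3.74 in recovery, 2.50 to 2.56 in acute and 2.06 to 2.35 in vehicle libraries. Only 2 of the 12 passed the filter for testing. Both were called, 1 higher and 1 lower, in repeat against vehicle (log2 difference 1.28 and -1.11), recovery against vehicle (0.99 and -1.71), repeat against acute (0.89 and -1.18) and recovery against acute cells (0.61 and -1.79). Of all genes 46.3, 5.94, 4.2 and 41.1% were called there. In acute against vehicle cells 1 was higher (43.8% of all genes were called), and in repeat against recovery neither was called. The 10 fibroblast markers summed to 12227 to 12547 CPM in repeat, 12918 to 13045 in recovery, 12592 to 12839 in acute and 12978 to 13491 in vehicle libraries. Single markers moved further than this sum, in which VIM weighed most: 9 of 10 were lower and 1 higher in repeat against vehicle cells (median log2 difference -0.60), 8 lower and 1 higher in repeat against recovery (-0.39), in acute against vehicle (-0.51) and in recovery against vehicle (-0.22), and 2 lower and 6 higher in recovery against acute (0.22). Of all genes 46.3, 41.6, 43.8, 5.94 and 41.1% were called in these comparisons, in that order. In repeat against acute cells 5 markers were lower and 2 higher (-0.13), where 4.2% of all genes were called. The fibroblast markers thus differed in every one of these comparisons, and the part of either marker set in the results below was not tested. In bulk RNA a smaller share of some cells and less RNA per cell cannot be told apart.

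Levels were compared between genes in TPM (transcript abundance corrected for transcript length and scaled to the same total in each library), as means over all 12 libraries. The catalytic beta subunit of ATP synthase, ATP5F1B, was the highest member at 1098 TPM. ATP5MF, a membrane subunit of ATP synthase, followed at 774 TPM, and UQCRQ, a small complex III subunit, at 533 TPM. The alpha subunit ATP5F1A, which alternates with the beta subunit in the catalytic head, was listed at 243 TPM. In complex I, NDUFV2, an iron-sulfur protein of the NADH-binding tip, was highest at 337 TPM, above its partner NDUFV1, which binds flavin, at 158 TPM. In complex II the iron-sulfur subunit SDHB had 208 TPM and the flavoprotein SDHA 86.7 TPM. The Rieske iron-sulfur protein UQCRFS1 was low for a core subunit, at 12.1 TPM. The lowest members were NDUFA4L2, a paralog of NDUFA4 known from hypoxia, at 0.669 TPM, and UQCRHL, a near-identical copy of UQCRH, at 1.21 TPM. UQCRH itself had 204 TPM, and reads may have been split between the copies.

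**Figure D1:**
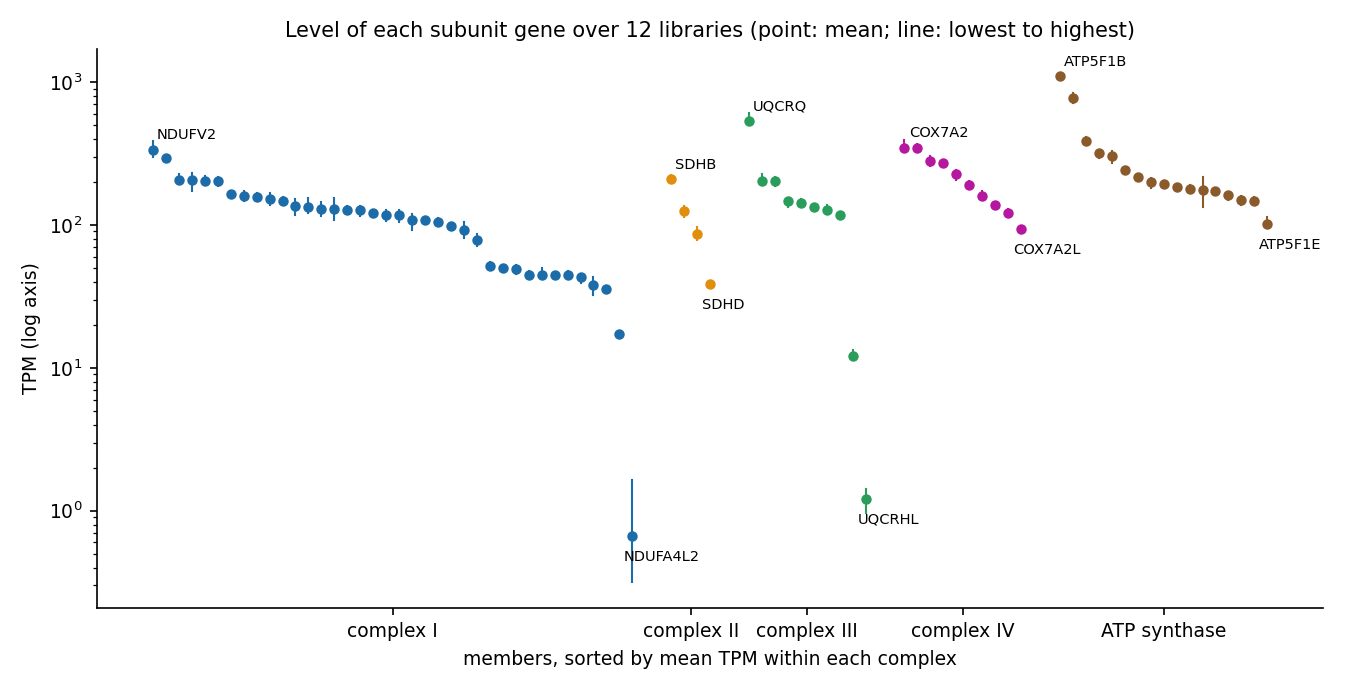
Level of each of the 79 subunit genes in TPM on a log axis, sorted within each complex; points are means over 12 libraries and vertical lines run from the lowest to the highest library. Most members lie within a narrow band between libraries, and NDUFA4L2 and UQCRHL lie far below the rest.

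The promoters of 63 members were found in the RefSeq promoter table (GRCh38.p14, from 250 bases before to 50 after the start), and 4 are printed because their genes carry the results below: NDUFA2 and UQCRC1, which fell in both pulses, NDUFA8, which rose in both, and NDUFA1, which was higher in repeat than in acute cells. NDUFA2 was taken from chr5:140647581-140647880 (minus strand), UQCRC1 from chr3:48609597-48609896 (minus), NDUFA8 from chr9:122159730-122160029 (minus) and NDUFA1 from chrX:119871582-119871881 (plus). Letters run 5′ to 3′, and capitals mark matches on either strand to GCGCATGCG (core of the NRF1 site), CCGGAAG (the core bound by ETS factors such as GABPA) or AAGATGGCG (YY1 site).
NDUFA2: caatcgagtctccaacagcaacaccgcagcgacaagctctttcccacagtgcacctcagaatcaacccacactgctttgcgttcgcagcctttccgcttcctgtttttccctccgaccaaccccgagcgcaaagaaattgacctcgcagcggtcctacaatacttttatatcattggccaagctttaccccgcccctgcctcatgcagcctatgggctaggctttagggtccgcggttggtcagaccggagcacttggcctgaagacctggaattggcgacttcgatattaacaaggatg
UQCRC1: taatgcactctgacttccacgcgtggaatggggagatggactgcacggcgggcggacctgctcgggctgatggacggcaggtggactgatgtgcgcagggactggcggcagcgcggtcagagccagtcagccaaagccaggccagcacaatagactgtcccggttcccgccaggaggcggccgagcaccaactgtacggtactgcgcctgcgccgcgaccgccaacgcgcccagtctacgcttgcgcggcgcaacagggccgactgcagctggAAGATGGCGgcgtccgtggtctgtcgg
NDUFA8: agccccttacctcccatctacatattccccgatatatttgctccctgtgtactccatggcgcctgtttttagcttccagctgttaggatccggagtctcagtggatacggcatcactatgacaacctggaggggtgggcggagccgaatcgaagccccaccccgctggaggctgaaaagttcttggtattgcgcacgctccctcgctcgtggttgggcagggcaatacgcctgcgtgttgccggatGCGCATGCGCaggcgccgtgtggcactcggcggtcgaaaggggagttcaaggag
NDUFA1: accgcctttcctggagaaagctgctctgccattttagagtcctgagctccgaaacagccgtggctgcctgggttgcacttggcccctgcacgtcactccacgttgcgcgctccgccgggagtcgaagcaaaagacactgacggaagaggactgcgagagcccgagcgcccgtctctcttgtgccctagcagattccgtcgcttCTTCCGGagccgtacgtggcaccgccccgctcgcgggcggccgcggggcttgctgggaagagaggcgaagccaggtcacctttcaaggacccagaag
NDUFA8 holds the NRF1 core, UQCRC1 the YY1 site and NDUFA1 the ETS core on the opposite strand, and NDUFA2 holds none of these letters. Over all members, GCGCATGCG occurred in 10 of 63 promoters (15.9%), against 2.36% of 22199 promoters of protein-coding genes and 1.92% of all 35116 promoters of the same length. CCGGAAG occurred in 19 (30.2%, against 12.8% and 10.3%) and AAGATGGCG in 8 (12.7%, against 2.41% and 1.75%), and 30 promoters held at least 1 of them. The interferon-type letters GAAANNGAA, searched after the values were seen, occurred in 5 member promoters (7.94%) and in 8.11% of all promoters. Of the members that fell in the first pulse, 16 had a promoter in the table, and GCGCATGCG, CCGGAAG and AAGATGGCG occurred in 1, 5 and 1 of these. Of those that rose, 5 had one, with 1, 0 and 1 matches. The 42 members with a promoter that were not called held 8, 14 and 6. Matches describe letters in this window and mark no bound site.

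The effect of a first 24 h pulse was read from acute against vehicle cells. Changes were small and went both ways: 9 members rose and 19 fell, and 51 were not called. That is 35.4% of members, where 43.8% of all 18119 tested genes were called (22.3% higher and 21.5% lower), a background above the members' share. Their median log2 fold change was -0.030, the median of all tested genes was 0.00019, and only 4 members passed 0.2 on the log2 scale in either direction. With upper quartile scaling the split was 5 higher and 27 lower, against 9 and 19, and that scaling moved the median of all genes to -0.027.

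Complex I held 16 of the 28 calls, with 7 members higher and 9 lower of 38, and the subunits of its NADH-oxidising tip went both ways. NDUFV1, the flavin-binding subunit that accepts electrons from NADH, had 102, 103 and 100.3 CPM in acute against 109.7, 113 and 114 in vehicle libraries. All acute libraries lay below all vehicle libraries, and the gene fell by 9.30% (-0.14 ± 0.026, adjusted p = 5.81e-05, log2 fold change ± SE). NDUFV2, its direct neighbour in the complex, had 103, 108 and 104 CPM in acute against 96.0, 97.4 and 94.0 in vehicle libraries, again without overlap, and rose (0.13 ± 0.029, adjusted p = 4.89e-04). NDUFS1, the large iron-sulfur subunit next in the electron path, fell to 127 ± 1.35 CPM in acute against 137 ± 3.33 in vehicle libraries (mean ± SD, n = 3 each; -0.11 ± 0.025, adjusted p = 5.84e-04).

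The largest change of any member was that of NDUFA2, an accessory subunit of the matrix arm. It had 19.3, 18.9 and 19.6 CPM in acute against 24.8, 23.0 and 24.6 CPM in vehicle libraries. The groups lay well apart, and the gene fell by 20.3% (-0.33 ± 0.044, adjusted p = 4.23e-07). NDUFA2 (ENSG00000131495.9) lies on the minus strand of chromosome 5 at 140638740 to 140647771 (GRCh38, GENCODE release 44) and shares 714 bases with IK on the other strand. Whether counting used the strand is not given in the sources used here, and IK had 159, 162 and 164 CPM in acute against 167, 162 and 164 in vehicle libraries, without the same gap. TMCO6, also on the other strand, shares 5974 bases with the NDUFA2 locus and had 5.06, 5.61 and 5.52 CPM in repeat, 5.74, 5.78 and 5.60 in recovery, 6.20, 5.67 and 6.57 in acute and 6.15, 6.56 and 6.604 in vehicle libraries. Its acute and vehicle libraries overlapped, and its repeat libraries lay below the vehicle ones. NDUFB10, an accessory subunit at the far end of the membrane arm, fell to 83.1 ± 1.17 in acute against 90.7 ± 0.493 CPM in vehicle libraries (-0.13 ± 0.028, adjusted p = 4.67e-04).

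Among the risers of complex I, NDUFA4 (ENSG00000189043.10, minus strand of chromosome 7 at 10931943 to 10940153) had 47.2, 47.9 and 46.8 CPM in acute against 43.6, 39.1 and 37.8 in vehicle libraries. The vehicle libraries were spread, and their highest stayed below the lowest acute one (0.23 ± 0.041, adjusted p = 4.44e-05). NDUFC2, a membrane-arm subunit, rose to 35.8 ± 3.04 in acute against 30.5 ± 2.16 CPM in vehicle libraries (0.23 ± 0.075, adjusted p = 0.0297), but its locus lies in a readthrough locus, NDUFC2-KCTD14, that was counted separately. The 2 together had 80.5, 78.7 and 76.5 CPM in acute against 71.9, 71.0 and 70.5 in vehicle libraries, which did not overlap. NDUFA8, an accessory subunit on the intermembrane-space side, had 41.8, 40.4 and 40.97 CPM in acute against 37.8, 38.9 and 37.9 in vehicle libraries, without overlap (0.10 ± 0.034, adjusted p = 0.0136). NDUFA9 and NDUFB3, named after their values were seen, rose by 0.13 and 0.12 on the log2 scale. NDUFA1, a small membrane subunit needed for assembly of the complex, had 51.5, 48.8 and 51.0 CPM in acute against 50.9, 50.8 and 53.1 in vehicle libraries, and the groups overlapped (-0.031 ± 0.035, adjusted p = 0.515).

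In complex II, which has no mitochondrially encoded part, 2 of 4 members fell. SDHA, the subunit that oxidises succinate, had 118, 119 and 118 CPM in acute against 122, 124 and 123 in vehicle libraries (-0.057 ± 0.023, adjusted p = 0.0486). SDHC, a membrane anchor, had 44.7, 41.6 and 43.5 in acute against 45.6, 48.4 and 45.7 CPM in vehicle libraries (-0.10 ± 0.039, adjusted p = 0.0328). Both sets stood apart by little, and both calls were lost with DESeq2 and on TPM. SDHB had 83.3, 78.6 and 80.9 CPM in acute against 76.4, 79.0 and 78.4 in vehicle libraries, which overlapped (0.057 ± 0.028, adjusted p = 0.106).

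In complex III 1 member rose and 3 fell of 10. UQCRC1, a core protein facing the matrix (ENSG00000010256.11, minus strand of chromosome 3 at 48599002 to 48610976), had 105, 104 and 104 CPM in acute against 118, 117 and 121 in vehicle libraries. It fell by 12.0% (-0.18 ± 0.024, adjusted p = 2.51e-07), with libraries well separated. Its partner UQCRC2, the other core protein, rose (0.071 ± 0.028, adjusted p = 0.0392), with 104, 107 and 100.2 CPM in acute against 98.8, 98.7 and 99.3 in vehicle libraries. The gap between these libraries was small, and the call was kept in 7 of 21 alternatives. UQCRB, a small subunit, had 106, 104 and 102 CPM in acute against 113, 112 and 111 in vehicle libraries, with no overlap (-0.10 ± 0.024, adjusted p = 0.00105). UQCRH, the hinge protein that contacts cytochrome c1, fell to 78.6 ± 1.80 in acute against 85.3 ± 3.34 CPM in vehicle libraries (-0.12 ± 0.032, adjusted p = 0.00360). With its copy UQCRHL added, the level was 83.6, 79.7 and 82.3 CPM in acute against 89.3, 91.7 and 85.5 in vehicle libraries, which stayed apart. Cytochrome c1 itself, CYC1, was not called (0.049 ± 0.025, adjusted p = 0.119), nor was UQCRFS1 (0.068 ± 0.044, adjusted p = 0.228).

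In complex IV no member rose and 2 fell of 10, 20.0% of its members. COX5B, a zinc-binding subunit on the matrix side, had 74.3, 72.4 and 75.5 CPM in acute against 82.5, 79.1 and 78.2 in vehicle libraries and fell without overlap (-0.11 ± 0.030, adjusted p = 0.00383). COX7A2L, which takes part in joining complexes III and IV into supercomplexes, had 74.0, 74.4 and 71.3 in acute against 78.4, 78.2 and 77.5 CPM in vehicle libraries (-0.091 ± 0.031, adjusted p = 0.0182). COX5A was not called (0.049 ± 0.031, adjusted p = 0.212), and its groups overlapped.

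In ATP synthase 1 member rose and 3 fell of 17. ATP5MC3, one of the genes for the subunit of the rotating c-ring (ENSG00000154518.10, minus strand of chromosome 2 at 175176258 to 175181710), had 122, 123 and 122 CPM in acute against 113, 114 and 116 in vehicle libraries. The 2 sets were tight and did not overlap (0.099 ± 0.024, adjusted p = 0.00131). ATP5PO, which joins the peripheral stalk to the catalytic head, had 65.6, 68.5 and 65.4 CPM in acute against 72.0, 75.3 and 73.3 in vehicle libraries and fell (-0.15 ± 0.029, adjusted p = 1.54e-04). ATP5MG, a membrane subunit, fell to 65.7 ± 1.10 in acute against 70.1 ± 1.31 CPM in vehicle libraries (-0.091 ± 0.029, adjusted p = 0.0108). The catalytic subunits were not called: ATP5F1A differed by -0.027 (95% interval -0.076 to 0.022) and ATP5F1B by -0.013 (-0.058 to 0.033) on the log2 scale.

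Subunit genes are short, and the transcript length implied by counts over TPM differed slightly with the pulse: the members' median relative length (log2) was 0.015 to 0.022 in acute and -0.025 to -0.012 in vehicle libraries. Over all 9015 genes with at least 500 counts in every library the median shifted the same way. It was 0.0081 to 0.0134 in acute and -0.0177 to -0.0076 in vehicle libraries. With gene length as an offset 2 members rose and 11 fell, where 2385 of all genes rose and 2323 fell. On log2(TPM + 0.1) 5 members rose and 11 fell, where 2528 of all genes rose and 1801 fell. The part of length in the calls was otherwise not tested. Across all 21 alternatives, 8 of the 19 falls and 1 of the 9 rises were called each time: UQCRC1, NDUFB7, NDUFA2, COX5B, NDUFB10, UQCRB, NDUFV1, UQCRH and, as the rise, NDUFA4.

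**Figure D2:**
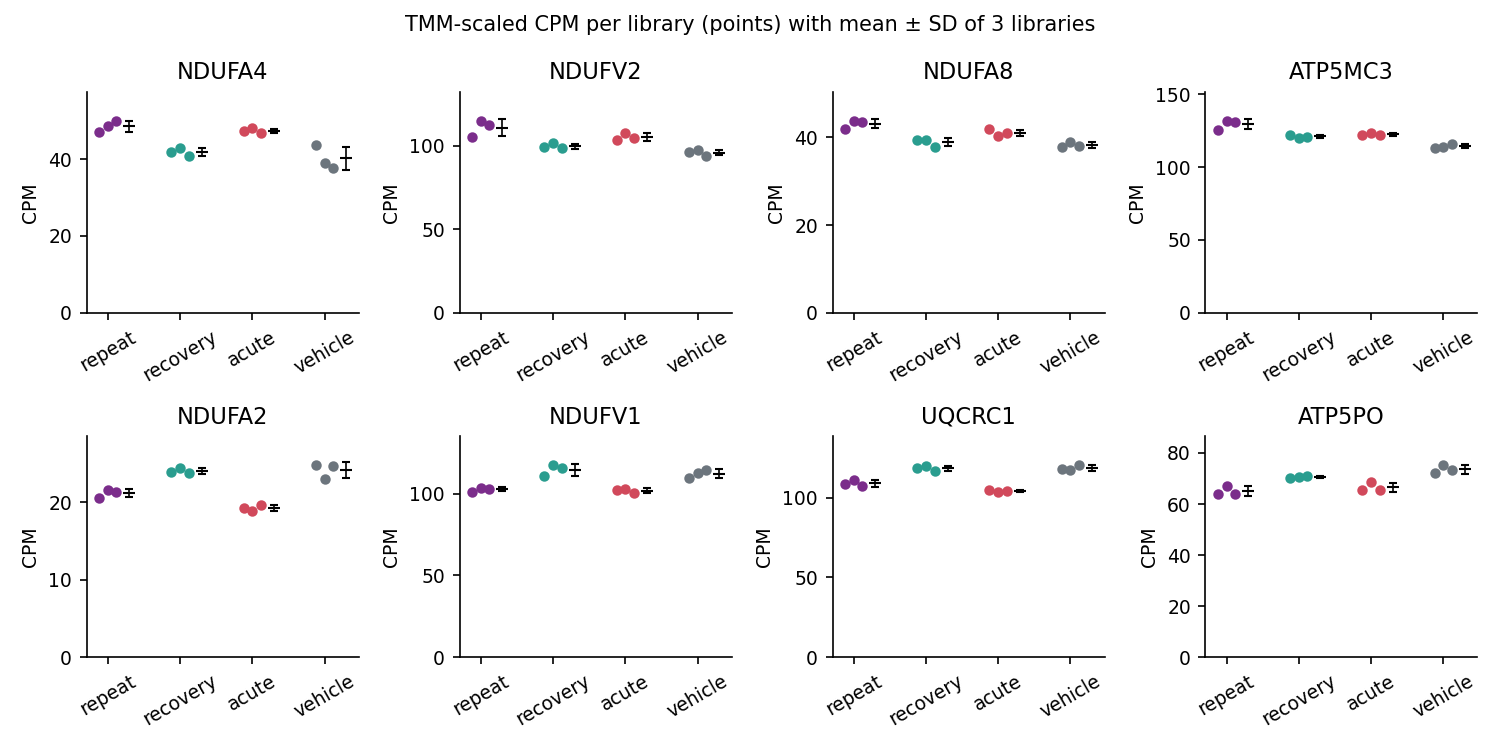
TMM-scaled CPM of 8 subunit genes in each library (points; vertical axes start at 0) with the mean ± SD of 3 libraries, for repeat, recovery, acute and vehicle cells. The upper 4 genes are higher and the lower 4 genes lower in the libraries harvested at the end of a pulse, repeat and acute, than in recovery and vehicle libraries (for ATP5MC3, recovery and acute libraries were not called apart).

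The recovery libraries show how far the members returned in 5 days without interferon. Against acute cells 24 members were higher and 4 lower in recovery cells, 35.4% of members where 41.1% of all genes were called (20.4% higher and 20.7% lower). The median log2 difference was 0.045. Upper quartile scaling gave 35 higher and 1 lower, and it also moved all genes to 4329 higher and 3148 lower with a median of 0.028, against 3696 and 3752 with TMM scaling. NDUFA2 had 23.9, 24.5 and 23.7 CPM in recovery against 19.3, 18.9 and 19.6 in acute libraries (0.32 ± 0.044, adjusted p = 9.31e-07), and UQCRC1 119, 119.9 and 117 in recovery against 105, 104 and 104 CPM in acute libraries (0.18 ± 0.024, adjusted p = 3.75e-07). In both genes the recovery libraries lay clear of the acute ones and among the vehicle ones. NDUFV1 had 111, 118 and 116 CPM in recovery against 102, 103 and 100.3 in acute libraries (0.17 ± 0.026, adjusted p = 4.76e-06). ATP5MG was higher in recovery, at 73.7 ± 0.462 in recovery against 65.7 ± 1.10 CPM in acute libraries (0.16 ± 0.029, adjusted p = 2.99e-05). SDHA and SDHC were higher by 0.10 ± 0.023 and 0.16 ± 0.039 on the log2 scale (adjusted p = 5.64e-04 and 0.00177). Of the genes that rose in the pulse, NDUFA4 had 41.8, 42.9 and 40.8 CPM in recovery against 47.2, 47.9 and 46.8 in acute libraries and was lower (-0.18 ± 0.042, adjusted p = 0.00103). NDUFV2 was also lower (-0.077 ± 0.029, adjusted p = 0.0370), as was NDUFA9, named after its values were seen. These calls were kept in 11 and 12 of 21 alternatives, and none of the 4 lower calls was kept in all of them, against 12 of the 24 higher ones.

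Against vehicle cells a single member was called in recovery cells, ATP5MC3, 1.27% of members where 5.94% of all genes were called. It had 122, 120.2 and 121 CPM in recovery against 113, 114 and 116 in vehicle libraries, with no overlap (0.082 ± 0.024, adjusted p = 0.0393). Recovery and acute libraries were not called apart for this gene (-0.016 ± 0.024, adjusted p = 0.637). The call against vehicle was lost with DESeq2, with no filter, on TPM, with the length offset and without vehicle replicate 1 or 2, acute replicate 1 or 3, or any 1 of the recovery replicates. In all 9 of 79 members had an unadjusted p under 0.05, where 3080 of all 18119 tested genes did, a larger share. The 79 log2 differences ran from -0.11 to 0.11. The intervals for NDUFA2 (-0.093 to 0.073) and UQCRC1 (-0.048 to 0.045) bound what difference could have gone unseen.

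The later pulse can be read against recovery cells at a similar time in culture. In repeat against recovery cells 10 members rose and 11 fell, 26.6% of members where 41.6% of all genes were called (21.1% higher and 20.5% lower), with a median of -0.0032. Upper quartile scaling gave 6 higher and 15 lower, and all genes 3312 higher and 4243 lower with a median of -0.025. NDUFA4 had 47.0, 48.5 and 49.9 CPM in repeat against 41.8, 42.9 and 40.8 in recovery libraries and rose by 15.9% (0.21 ± 0.041, adjusted p = 1.11e-04). NDUFV2 had 105, 115 and 112 CPM in repeat against 98.9, 101 and 98.3 in recovery libraries (0.15 ± 0.029, adjusted p = 6.42e-05), and NDUFA8 41.9, 43.8 and 43.5 in repeat against 39.4, 39.5 and 37.8 CPM in recovery libraries (0.15 ± 0.033, adjusted p = 6.45e-04). These 3 were picked among calls whose repeat and recovery libraries did not overlap. ATP5MC3, at 125, 132 and 131 CPM in repeat against 122, 120.2 and 121 in recovery libraries, rose once more (0.097 ± 0.024, adjusted p = 0.00139). NDUFA2 fell, with 20.5, 21.6 and 21.3 CPM in repeat against 23.9, 24.5 and 23.7 in recovery libraries (-0.18 ± 0.042, adjusted p = 8.82e-04). NDUFV1 had 101, 104 and 103 CPM in repeat against 111, 118 and 116 in recovery libraries and fell by 10.4% (-0.16 ± 0.026, adjusted p = 1.06e-05). UQCRC1 fell to 109 ± 2.13 in repeat against 119 ± 1.66 CPM in recovery libraries (-0.12 ± 0.024, adjusted p = 1.47e-04), NDUFB10 to 85.3 ± 3.58 in repeat against 92.8 ± 1.48 in recovery libraries (-0.12 ± 0.028, adjusted p = 6.26e-04) and ATP5PO to 64.95 ± 1.92 in repeat against 70.6 ± 0.464 in recovery libraries (-0.12 ± 0.029, adjusted p = 0.00140). The ATP5PO call was lost on TPM and with the length offset, where the difference was 0.0036. NDUFA1 rose here, with 55.3, 53.1 and 58.1 CPM in repeat against 51.3, 51.4 and 53.0 in recovery libraries, which just missed overlap (0.093 ± 0.034, adjusted p = 0.0283), and the call was kept in 13 of 21 alternatives. All 21 kept 2 of the 10 rises, NDUFA8 and NDUFV2, and 4 of the 11 falls, UQCRC1, NDUFA2, NDUFB10 and NDUFV1. Of complex IV 0 of 10 members were called, with edgeR or DESeq2. In edgeR 0 of these had an unadjusted p under 0.05, where 8618 of all 18119 tested genes did.

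Acute and vehicle libraries on one side and repeat and recovery libraries on the other share no library, so the 2 pulses can be set side by side. 7 genes rose in both, among them NDUFA4, NDUFA8, NDUFA9, NDUFB3, NDUFV2 and ATP5MC3. The 7 were 77.8% of the rises of the first pulse and 70.0% of those of the later one. 10 fell in both: NDUFA2, NDUFB10, NDUFS1, NDUFS6, NDUFV1, SDHC, UQCRC1, ATP5F1D, ATP5MG and ATP5PO, which were 52.6% and 90.9% of the falls. No member was called in opposite directions, all 9 first-pulse rises were positive and 18 of 19 falls negative in the later pulse. Across the 79 members the 2 sets of log2 fold changes had a Pearson r of 0.774, given as a description, since members are not independent and all values come from 1 fit. Neither the shared calls nor this correlation was computed over all tested genes. The recurrence therefore cannot be read as particular to the members. Within complex I both directions recurred: NDUFV1 and NDUFS1 fell and NDUFV2 rose in each pulse. NDUFS1 depended on the scale, since on log2(TPM + 0.1) it differed by 0.098 in repeat against recovery cells, and ATP5PO turned sign there with the length offset.

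**Figure D3:**
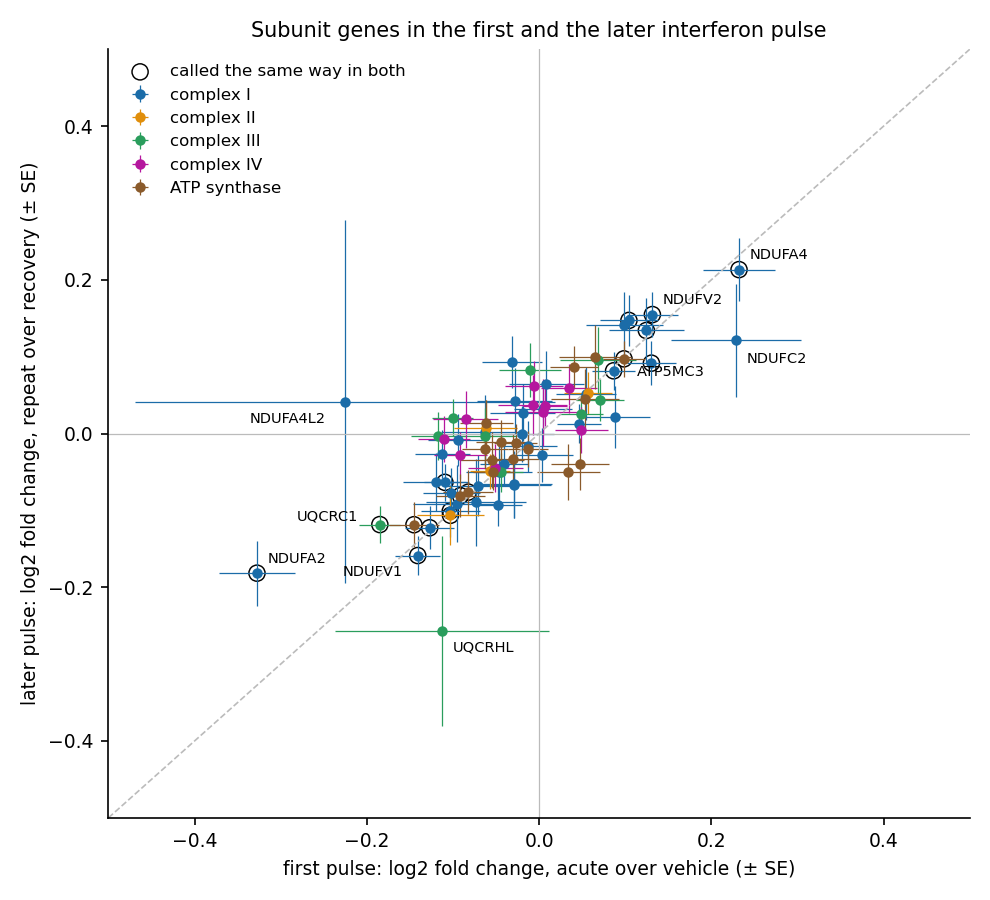
Log2 fold change of each of the 79 members in the first pulse (acute over vehicle, horizontal axis) and the later pulse (repeat over recovery, vertical axis), with bars of ± 1 SE, coloured by complex; the dashed line marks equal change and rings mark the 17 genes called the same way in both. NDUFA4 lies far up on the line at 0.23 and 0.21, NDUFV1 low on it at -0.14 and -0.16, and NDUFA2 left of the rest at -0.33 and -0.18.

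The difference between the 2 pulses was tested as an interaction, and no member was called (0 of 79, where 0.651% of all genes were). DESeq2 also called 0, but its own filtering left only 4419 genes with an adjusted p in this test, against 18119 in edgeR. A member without one could not be called there. In the edgeR test 5 of 79 members had an unadjusted p under 0.05, where 1911 of all 18119 tested genes did, a larger share. The 5 members were UQCRB, NDUFA1, UQCRH, COX5B and NDUFA2, all with a positive difference, and the smallest adjusted p was 0.114 for UQCRB. UQCRB had 112, 115 and 112 CPM in repeat, 110.0, 113 and 111 in recovery, 106, 104 and 102 in acute and 113, 112 and 111 in vehicle libraries, so its acute libraries stood lowest and the other groups overlapped. The interaction was 0.12 ± 0.034, with a 95% interval of 0.055 to 0.19. For NDUFA2 the fall was -0.18 in the later pulse and -0.33 in the first, a difference of 0.15 ± 0.061 (adjusted p = 0.364).

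Repeat and acute cells, both harvested at the end of a pulse, differed in 4 members, all higher in repeat cells (5.06% of members, where 4.2% of all genes were called). UQCRB, UQCRH and UQCRQ belong to complex III. UQCRB was higher by 0.12 ± 0.024, adjusted p = 0.00509, and UQCRH, with 83.9, 88.8 and 86.7 CPM in repeat against 80.0, 76.6 and 79.3 in acute libraries, by 0.14 ± 0.032, adjusted p = 0.0125. UQCRQ had 51.7, 55.99 and 53.6 CPM in repeat against 50.1, 47.6 and 49.8 in acute libraries (0.13 ± 0.035, adjusted p = 0.0349), and NDUFA1 55.3, 53.1 and 58.1 in repeat against 51.5, 48.8 and 51.0 CPM in acute libraries (0.13 ± 0.034, adjusted p = 0.0228). None of the 4 overlapped, but non-overlap was required for naming UQCRH, UQCRQ and NDUFA1 here. The share of all genes without overlap is not given, so this adds nothing to the calls. All 4 calls were lost on TPM and with the length offset, and UQCRQ changed sign on TPM. The count moved with single libraries: it was 15 without repeat replicate 1, 2 without repeat replicate 2, repeat replicate 3 or acute replicate 3, and 1 without acute replicate 2.

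Against vehicle cells 19 members were higher and 8 lower in repeat cells, 34.2% of members where 46.3% of all genes were called (23.4% higher and 22.9% lower). The median was 0.015, and upper quartile scaling gave 13 higher and 12 lower with a median of -0.0085, where all genes had a median of -0.022. ATP5MC3 had 125, 132 and 131 CPM in repeat against 113, 114 and 116 in vehicle libraries and was higher by 13.2% (0.18 ± 0.024, adjusted p = 3.39e-07). NDUFA4 was higher by 0.27 ± 0.041, NDUFV2 by 0.21 ± 0.029 and NDUFA8 by 0.17 ± 0.033 (adjusted p = 4.45e-06, 6.03e-07 and 8.62e-05). Some members that were not called in the first pulse were called here. SDHB had 81.0, 83.2 and 85.0 CPM in repeat against 76.4, 79.0 and 78.4 in vehicle libraries, without overlap (0.093 ± 0.028, adjusted p = 0.00670). CYC1 was higher by 0.073 ± 0.025, adjusted p = 0.0169, and UQCRFS1 by 0.14 ± 0.043, adjusted p = 0.0106, although its libraries overlapped. Among the lower members ATP5PO had 63.95, 67.2 and 63.7 CPM in repeat against 72.0, 75.3 and 73.3 in vehicle libraries (-0.18 ± 0.029, adjusted p = 8.52e-06), and NDUFA2 20.5, 21.6 and 21.3 in repeat against 24.8, 23.0 and 24.6 CPM in vehicle libraries (-0.19 ± 0.042, adjusted p = 4.07e-04).

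Of the 13 subunits encoded in mitochondrial DNA, 8 fell and none rose in acute against vehicle cells (61.5% called, where 43.8% of all genes were, 21.5% lower). Their median log2 fold change was -0.18, beside -0.030 for the nuclear members, and over the 21 alternatives 7 to 9 fell and none rose. MT-CO3, a core subunit of complex IV, had 2825, 2930.3 and 2888 CPM in acute against 4345, 4139.8 and 4325 in vehicle libraries and fell (-0.57 ± 0.022, adjusted p = 2.02e-18). MT-CYB, the cytochrome b of complex III, fell to 2876, 3115 and 2993 in acute against 4107, 3732 and 4043 CPM in vehicle libraries (-0.40 ± 0.037, adjusted p = 1.28e-06). MT-ATP6, the proton channel of ATP synthase, fell (-0.44 ± 0.031), whereas MT-CO2 had 4147, 4794 and 4392 CPM in acute against 4350.0, 4274 and 4466 in vehicle libraries and was not called (0.026 ± 0.046, adjusted p = 0.699). In repeat against recovery cells 12 of 13 fell (median -0.22, where 20.5% of all genes were lower), and in recovery against acute cells 9 were higher and none lower (20.4% of all genes were higher). In recovery against vehicle cells edgeR called 0 of 13, where 5.94% of all genes were called. An unadjusted p under 0.05 was found for 0 of the 13 and for 3080 of all 18119 tested genes. The share of all counts from the mitochondrial genome was 4.38 to 4.59% in repeat, 5.57 to 5.69% in recovery, 4.54 to 4.83% in acute and 5.44 to 5.76% in vehicle libraries, so libraries at the end of a pulse lay below the others without overlap.

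**Figure D4:**
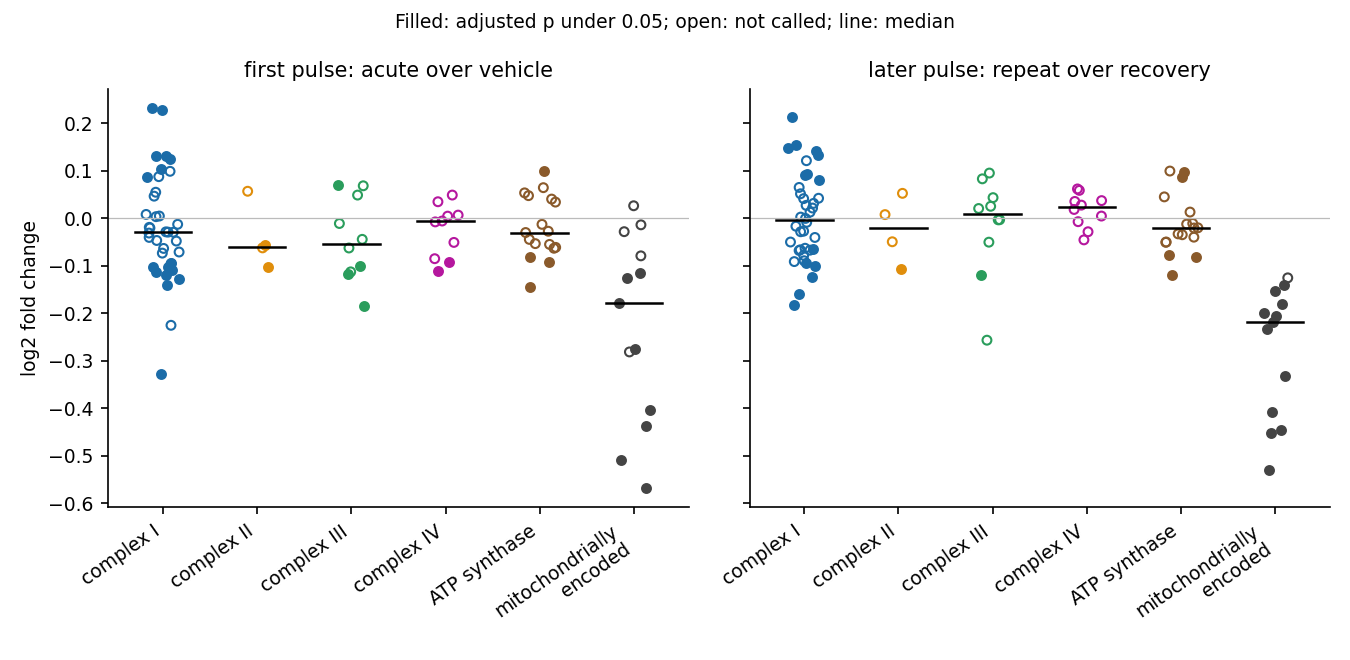
Log2 fold changes of the nuclear members by complex and of the 13 mitochondrially encoded subunits in the first pulse (left, acute over vehicle) and the later pulse (right, repeat over recovery); filled points have an adjusted p under 0.05 and black lines are medians. Nuclear members spread on both sides of 0, and mitochondrially encoded subunits lie mostly below it, with medians of -0.18 and -0.22.

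Because TPM includes the mitochondrial transcripts, the summed TPM of the members was also rescaled with them left out. It was 14988 to 15596 in repeat, 15619 to 15754 in recovery, 14850 to 15026 in acute and 15490 to 15606 in vehicle libraries. Acute libraries were lowest and apart from vehicle and recovery, and repeat libraries spanned the gap. With the mitochondrial transcripts included, the sums were 13489 to 14118 in repeat, 13753 to 13821 in recovery, 13402 to 13610 in acute and 13538 to 13698 in vehicle libraries, and acute and vehicle overlapped. By complex, acute and vehicle libraries were apart in 4 of 5 sums without them. The complex I sum was 4824 to 4897 in acute against 4957 to 5000.4 in vehicle libraries, and that of complex IV 2355 to 2394 in acute against 2416 to 2510.3 in vehicle libraries. The ATP synthase sum was 5361 to 5518 in acute against 5709 to 5756 in vehicle libraries, and that of complex III 1744 to 1797 in acute against 1853 to 1878 in vehicle libraries. Complex II overlapped, at 494 to 514 in acute against 505 to 531 in vehicle libraries. With the mitochondrial transcripts included, only the complex III sums were apart, at 1574 to 1618 in acute against 1627 to 1641 in vehicle libraries. The complex I sums then overlapped, at 4343 to 4420 in acute against 4332 to 4373 in vehicle libraries. How often sums of other genes were apart is not given here.

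Factors that assemble the complexes also went both ways: 11 of 46 rose and 11 fell in the first pulse (47.8% called, near the 43.8% of all genes), with a median of 0.0045. The split was 7 and 13 with upper quartile scaling and 4 and 4 with the length offset. SCO2, which delivers copper to complex IV, was highest among them, with 42.7, 39.9 and 43.9 CPM in acute against 24.0, 23.3 and 22.4 in vehicle libraries (0.86 ± 0.041, adjusted p = 3.08e-16). Its locus shares 710 bases on the same strand with TYMP, which had 34.1, 32.3 and 34.6 CPM in acute against 4.59, 4.71 and 5.11 in vehicle libraries, so reads from the 2 genes may not have been told apart. BCS1L, which inserts the Rieske protein into complex III, rose to 21.4 ± 0.685 in acute against 17.2 ± 1.01 CPM in vehicle libraries (0.31 ± 0.048, adjusted p = 3.81e-06). LYRM7, which holds the Rieske protein before insertion, fell, with 27.5, 26.9 and 27.0 CPM in acute against 36.2, 36.6 and 37.7 in vehicle libraries (-0.44 ± 0.039, adjusted p = 2.58e-10). NDUFAF4, a complex I assembly factor, rose by 0.31 ± 0.074, and COX11, which brings copper to complex IV, fell (-0.22 ± 0.040, adjusted p = 4.03e-05). In the later pulse 16 rose and 6 fell (21.1% and 20.5% of all genes did), and the split was 13 and 8 with upper quartile scaling and 5 and 0 with the length offset, with SCO2 at 0.84, BCS1L at 0.22 and LYRM7 at -0.40.

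Of 12 regulators of mitochondrial gene expression 5 rose and 3 fell in the first pulse, where 22.3% of all genes rose and 21.5% fell. YY1, a transcription factor, had 135, 136 and 136 CPM in acute against 173, 165 and 165 in vehicle libraries and fell (-0.31 ± 0.023, adjusted p = 9.54e-12). GABPA, the DNA-binding part of an ETS factor, fell (-0.16 ± 0.032). NRF1 had 18.1, 18.6 and 18.8 CPM in acute against 19.4, 19.1 and 20.1 in vehicle libraries (-0.076 ± 0.045, adjusted p = 0.177) and TFAM, which packages mitochondrial DNA, 59.5, 59.8 and 58.1 in acute against 60.4, 62.4 and 61.97 CPM in vehicle libraries (-0.059 ± 0.028, adjusted p = 0.0923), and neither was called. ESRRA, a nuclear receptor that drives oxidative genes, rose by 0.21 ± 0.043, the coactivator PPRC1 by 0.30 ± 0.026, and POLRMT, the mitochondrial RNA polymerase, by 0.22 ± 0.028. In the later pulse 6 rose and 2 fell (21.1% and 20.5% of all genes). On log2(TPM + 1) 2 rose and 1 fell in the first pulse.

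Of 15 subunits and partners that the symbol rule does not take, 14 were tested, of which 2 rose and 6 fell in the first pulse (57.1% called, where 43.8% of all genes were). NDUFAB1, the acyl carrier protein that is also a complex I subunit, rose, with 34.1, 36.2 and 35.5 CPM in acute against 28.1, 29.6 and 29.5 in vehicle libraries (0.28 ± 0.045, adjusted p = 1.02e-05). ATP5IF1, the inhibitor of ATP hydrolysis by ATP synthase, had 116, 115 and 114 CPM in acute against 136, 133 and 135 in vehicle libraries and fell (-0.23 ± 0.025, adjusted p = 1.92e-08). COX4I1, the main form of a complex IV subunit, was not called (-0.027 ± 0.027, adjusted p = 0.452), and COX4I2 had 0 counts in every library. ETFDH, which passes electrons from fatty acid oxidation to ubiquinone, fell (-0.33 ± 0.047). SLC25A4, the ADP/ATP carrier of heart and muscle, rose by 0.31 ± 0.063. In the later pulse NDUFAB1 rose by 0.28 ± 0.044, ATP5IF1 fell (-0.19 ± 0.025), and 3 of the 14 rose and 5 fell in all, where 41.6% of all genes were called.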

How the data were processed

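RNA sequencing libraries of 12 samples (4 groups of 3) were analysed from 2 tables. Poly(A) RNA went into stranded, single-end libraries, per the labels' protocols. Reads were trimmed with Trim Galore and aligned to GRCh38 with STAR, and featureCounts assigned them to GENCODE release 41 genes, per the design text. Versions in the submitters' processing notes are featureCounts 2.0.3, STAR 2.7.11a, cutadapt 4.3, Trim Galore 0.6.10 and Picard 2.27.5, with build GRCh38.p13. For testing those notes name edgeR, whereas the design text names DESeq2. No source used here says whether strand was used in counting. Values deposited by the authors are TPM and estimated counts, 25.5% of whose nonzero entries were not whole (tolerance 0.001). Counts were rounded to whole numbers. Every value column belonged to a sample.

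Symbols came from GENCODE release 44, which held 60463 of 60649 identifiers. All libraries entered 1 fit in R 4.3.3 with edgeR 4.0.16 (TMM scaling, filterByExpr, robust quasi-likelihood F test, two-sided), which kept 18119 genes at a biological coefficient of variation of 2.67%. Calls required an adjusted p under 0.05 (Benjamini-Hochberg, all tested genes). Errors of log2 fold changes are SEs of the fit, and those of CPM are SDs over 3 libraries. P-values measure the spread among these libraries, whose replicates the design text states to be independent.

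The members and lists were chosen with earlier results of these data known. The lists were mitochondrially encoded subunits, assembly factors, biogenesis regulators, partners outside the symbol rule, an interferon check, and cardiomyocyte and fibroblast markers. Named members were the markers ATP5MC3, UQCRB and NDUFA1, the largest non-overlapping calls by complex in the first pulse and by comparison elsewhere, a set catalytic core, of which not every gene is reported here, and the 3 highest and 3 lowest by TPM. For genes named as the largest calls, non-overlap was required by that choice and adds nothing to the call. The share of all genes without overlap is not given here. NDUFA9, NDUFB3, NDUFB7, NDUFS6 and ATP5F1D and the list genes with values were named after their values were seen. The 21 alternatives were upper quartile and RLE scaling, DESeq2 1.42.0, no filter, limma 3.58.1 on log2(TPM + 0.1) and log2(TPM + 1), a gene length offset, only the 2 groups in the fit, a replicate block, and each library left out.

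Replicate numbers were not used to pair the samples in the main fit. Correlations of deviations from group means ran from -0.164 to 0.182 for same-numbered libraries (median 0.04). For other pairs of libraries they ran from -0.146 to 0.161 (median -0.0205). Such weak values cannot exclude a pairing, and the replicate block is given among the alternatives. Of the members, 33 overlap another locus with a mean of at least 10 counts, 16 of them on the same strand, and 15 pseudogenes of these families had at least that mean, so reads may have been split.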

Additional observations from a re-analysis of the deposited data

How the results depend on the processing

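On log2(TPM + 0.1), log2(TPM + 1) and with the length offset the counts were 16, 16 and 13 for acute against vehicle (28 in the count fit), 15, 15 and 12 for repeat against vehicle (27), 16, 16 and 17 for recovery against acute (28), 11, 11 and 7 for repeat against recovery (21), and 0, 0 and 0 for repeat against acute (4). With only the 2 groups in the fit repeat against acute gave 2. For recovery against vehicle the count was 0 with DESeq2, with no filter, on both TPM scales and with the length offset, against 1. With 1 library left out, called members ran from 1 to 15 for repeat against acute and from 0 to 1 for recovery against vehicle.

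Counts over all genes in the same order of alternatives were 4329, 4344 and 4708 for acute against vehicle (7938 in the count fit), 4667, 4651 and 5119 for repeat against vehicle (8391), 3843, 3836 and 4134 for recovery against acute (7448), 3830, 3824 and 4158 for repeat against recovery (7546), 9, 6 and 30 for repeat against acute (761; 506 with only the 2 groups), 125, 118 and 199 for recovery against vehicle (1076), and 5, 3 and 14 for the interaction (118; 206 with DESeq2 and 333 with no filter). With 1 library left out those for the last 3 comparisons ran from 340 to 1233, 627 to 1180 and 51 to 348.

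Signs turned as follows. NDUFS1 was 0.041, 0.040 and 0.028 in repeat against vehicle and 0.098, 0.096 and 0.083 in repeat against recovery on the 2 TPM scales and with the length offset, and -0.026 and -0.025 in recovery against acute on TPM. UQCRQ was -0.0056, -0.0056 and -0.012 in repeat against vehicle and -0.0076 and -0.0076 in repeat against acute. ATP5PO was 0.0036 in repeat against recovery with the length offset. All 14 of these were uncalled under the alternative, and the cause was not tested.

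The replicate block gave 27 calls for acute against vehicle, 30 for recovery against acute, 22 for repeat against recovery and 5 for repeat against acute. Named members kept direction and side of the threshold in 1300 of 1512 values, and 198 kept direction but lost the call. The fit of only 2 groups does not apply to the interaction. The interaction gave 0 members under the other 20 alternatives, among them DESeq2, which gave only 4419 genes an adjusted p there. With 3 libraries a group, small differences could go uncalled.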
